A study of Homo sapiens with 9 samples.

Results

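The comparison described here set A375 tumours that carried a RING mutant of RNF4 and received doxycycline (Dox) against A375 tumours that carried wild-type RNF4 and received none. A375 is an established human melanoma cell line, and here it grew as xenografts in immunocompromised nude mice. The comparison was chosen by its label and takes 6 of the 9 RNA-seq libraries of the series. The 3 libraries labelled RING mutant come from cells with a Dox-inducible RNF4 C159A, and their mice drank Dox from day 3 after injection. The 3 control libraries come from cells with Dox-inducible wild-type RNF4 whose plasmid was left inactive. The other 3 libraries, wild-type RNF4 with Dox, are given beside them as context. Tumours were taken after 30 days, and each library is a pool of 2 tumours, so each group stands for 6 tumours. The series text names GFP-expressing tumours as the control, whereas the control titles name uninduced RNF4. Construct and Dox both differ between the groups compared, and their parts cannot be told apart. The promoter of the construct, and whether each line is 1 clone, are not given in the sources used here. Libraries are called by their column numbers. The controls are T1, T4 and T12, the group labelled RING mutant is T3, T6 and T14, and the context group is T2, T5 and T13. The titles give replicate numbers but do not tie a column to a title, and p-values measure the spread between these pools.

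RNF4 is a ubiquitin ligase that binds proteins carrying chains of the small modifier SUMO and marks them with ubiquitin. Its RING domain holds zinc through cysteines and recruits the ubiquitin-loaded enzyme, so replacing one of these cysteines removes its activity. The mutant therefore serves as a control in which the protein can be made but cannot pass on ubiquitin. C159A replaces cysteine 159, counted from the start codon, with alanine. The reference coding sequence of RNF4 (GENCODE release 29, transcript ENST00000314289.12, 190 codons with the stop codon) reads as follows from codon 151 to codon 167, and is shown because it is the site that defines the group. The codon for cysteine 159 is in capitals.
RNF4 codons 151 to 167: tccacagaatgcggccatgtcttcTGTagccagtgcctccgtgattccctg
The deposited gene counts do not separate the mutant codon from the wild-type one, nor the construct from the chromosomal gene.

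RNF4 itself (chromosome 4, 2462220 to 2625320, GRCh38) was high in 1 of the 3 libraries labelled RING mutant. In CPM, read counts scaled to a common library size after TMM normalization, RNF4 stood at 33.4 in T1, 52.0 in T4 and 43.2 in T12 without Dox. It stood at 47.0 in T3, 559 in T6 and 63.5 in T14. T6 lay above all other libraries, T14 lay above the highest control, and T3 fell among the controls, so the groups overlapped. The context group, wild-type RNF4 with Dox, had 380 (T2), 413 (T5) and 454 CPM (T13). The fitted log2 difference, labelled RING mutant minus RNF4 without Dox, was 2.38 ± 0.81 (SE) with an unadjusted p of 0.0149 in edgeR's quasi-likelihood test, and 0.36 without T6. In 2 of the 3 libraries the RNF4 transcript thus went against the label, and all directions below are those of libraries labelled RING mutant.

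The 6 libraries held between 16416426 and 28934692 counts. On a principal component analysis of all 9 libraries, T1 and T2 stood apart on the first component (47.4% of the variance). On the second (22.8%), T14 (score 52.1) and T13 (35.7) lay at the positive end. At the negative end lay T4 (-35.6), with T3 (-27.0) and T5 (-24.6) next. In T1, 21.6% of all counts fell on 58 genes of cytosolic ribosomal proteins, against 5.83% to 8.50% in the other 5 libraries compared. In T14, 16 tested skeletal muscle markers and their 2 untested companions summed to 1092 CPM, against 26.1 to 65.6 CPM in the other 5. Markers of A375 cells were present in every library: 18 of 18 listed genes were tested and summed to between 5629 and 10121 CPM. The list of melanocyte lineage and pigment genes summed to between 270 and 303 CPM. Since the samples are bulk tissue, fewer cells of a type and less RNA per cell cannot be told apart.

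Of 18618 genes tested, none passed an adjusted p of 0.05 in the quasi-likelihood test (0% called), and 325 had an unadjusted p under 0.05 (1.75%), 68 of them higher (0.365%) and 257 lower (1.38%). In 480 genes (2.58%) all 3 libraries labelled RING mutant lay below all 3 libraries without Dox, and in 224 genes (1.2%) they all lay above. These 704 genes (3.78%) are called non-overlapping below, and the shares are the background for every count that follows. With 3 libraries in each group, genes can separate in this way without a difference between the groups, so non-overlap is a description only. Among non-overlapping genes the sizes were unequal: the mean of the libraries labelled RING mutant was over 4 times below the control mean in 117 lower genes, whereas 8 higher genes exceeded 4 times the control mean. Without T14, 112 of these lower genes and 3 of the higher ones stayed beyond 4-fold. Without T4, the control library that was highest in 92 of the 117, 80 stayed beyond it. T13, of the RNF4 libraries with Dox, lay below all 3 control libraries in 102 of the 117, T5 in 61 and T2 in 2. The median log2 difference over all tested genes was -0.04, and 10568 of them (56.8%) lay below 0. Calls depended on the method: edgeR's likelihood ratio test called 5 genes (0.0269%) and DESeq2 called 4 of 18486 (0.0216%), all lower, limma voom called none, and the quasi-likelihood test without a filter on low counts called 109, 34 higher and 75 lower. The authors' deposited table lists 3 genes as higher (0.0187% of 16002) and 16 as lower (0.1%).

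Of the 16 genes the authors list as lower, the 4 with the highest control means, AMOT, AL035425.3, IRS4 and RADX, lie on chromosome X. IRS4 (108732482 to 108736409, minus strand), an adaptor protein of the insulin receptor family of substrates, stood at 4.10 CPM in T1, 53.9 in T4 and 7.27 in T12. It had no counts in T3 and T14 and 12 counts in T6, or 0.525 CPM. The groups did not overlap, and T6 held all of the remaining IRS4 counts. Their means were 0.175 ± 0.303 (SD, n = 3) and 21.8 ± 27.9 CPM, a 124-fold difference. The fitted log2 difference was -6.75 ± 1.88 (SE), -4.82 without T4 and -11.89 without T6, when no count remains in the group. AL035425.3, a noncoding gene on the same strand next to IRS4 (108719949 to 108724944), stood at 16.6, 53.4 and 12.7 CPM in T1, T4 and T12, and at 0.0593, 0.437 and 0.0568 in T3, T6 and T14. It was the 1 gene of this region called by both the likelihood ratio test (adjusted p = 0.0112, log2 difference -7.14) and DESeq2 (adjusted p = 0.00602, log2 difference -7.19). In edgeR's quasi-likelihood test its adjusted p was 0.99996 with the filter on low counts and 9.73e-07 without it. RNF4 with Dox was split for the same pair: AL035425.3 was at 55.8 CPM (T2), 15.4 (T5) and 0.620 (T13), and IRS4 at 21.3, 11.4 and 0.0827.

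AMOT (112774503 to 112840815) encodes angiomotin, a scaffold protein that binds the Hippo pathway effector YAP at cell junctions. It stood at 14.8, 103 and 16.2 CPM in T1, T4 and T12, and at 1.13, 4.20 and 2.22 in T3, T6 and T14. All 3 libraries labelled RING mutant lay below the controls, with T4 the highest of the 6, and the log2 difference of -4.14 ± 1.1 was -2.61 without T4. RADX (106611930 to 106679442), which binds single-stranded DNA at replication forks, stood at 10.3, 25.6 and 4.48 CPM against 0.356, 0.700 and 0.284. Its group means differed 30.1-fold. Across the 29 tested genes from RADX to AMOT, a span of 6.23 Mb, 19 of the 25 others had a log2 difference below 0, with a median of -0.40. Over all genes tested the share below 0 was 56.8%. Of these 25, 3 were non-overlapping and lower: NUP62CL (no counts against 69, at least 18.5-fold lower with a floor of 3 counts over the group), MID2 (log2 difference -1.85 ± 0.73) and COL4A6 (-0.94 ± 0.50). Without T4 the log2 difference was -0.80 for MID2 and -0.52 for COL4A6. The region thus held both genes near 0 and genes with almost no counts. Over all of chromosome X, 31 of 585 tested genes (5.30%) were non-overlapping and lower and 4 were higher. No other chromosome in the annotation used had a higher share of lower ones, although the median over X was only -0.13. Whether the share on X exceeds what arises without a group difference was not tested.

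**Figure D1:**
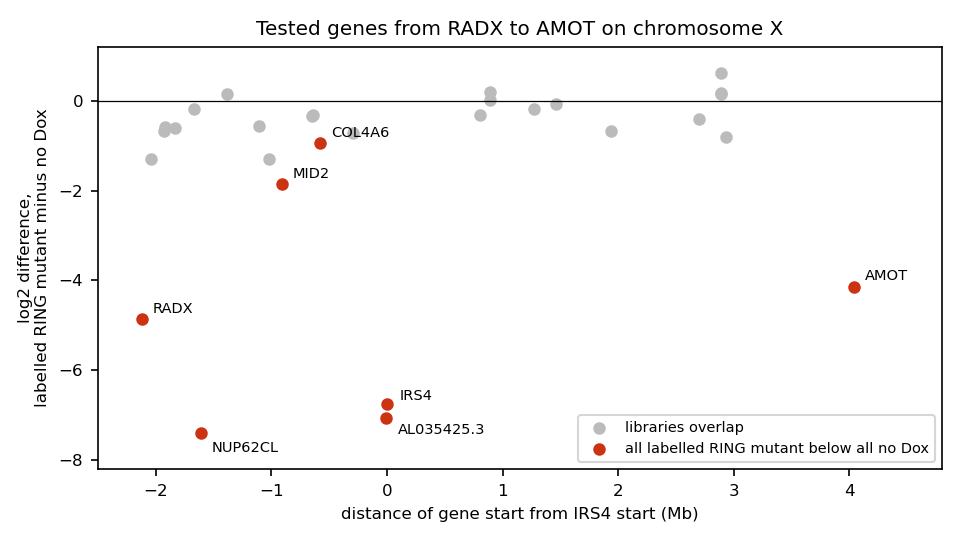
Log2 difference (labelled RING mutant minus RNF4 without Dox) of the 29 tested genes from RADX to AMOT against the distance of their start from that of IRS4 in Mb. Red points are the 7 genes whose libraries do not overlap between groups, among them IRS4, AL035425.3, RADX, AMOT and NUP62CL, and grey points are genes whose libraries overlap. NUP62CL has no counts in 1 group, so its height is a fitted value and not a measured fold.

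The bases just before the start of IRS4 and AMOT are shown because both genes lie in this region and were low together in T3, T6 and T14. They are from RefSeq (GRCh38.p14), written 5′ to 3′ on the gene's strand, with each CG in capitals. Only bases outside the GENCODE gene are printed, so the stretch of IRS4, whose RefSeq start lies inside the GENCODE gene, is the shorter.
IRS4, chrX:108736410-108736627, minus strand: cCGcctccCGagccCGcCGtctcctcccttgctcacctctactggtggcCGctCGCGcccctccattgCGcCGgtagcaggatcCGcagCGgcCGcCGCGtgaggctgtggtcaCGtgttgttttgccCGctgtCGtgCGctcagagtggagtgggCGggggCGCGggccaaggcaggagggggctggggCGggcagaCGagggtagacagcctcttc
AMOT, chrX:112840832-112841081, minus strand: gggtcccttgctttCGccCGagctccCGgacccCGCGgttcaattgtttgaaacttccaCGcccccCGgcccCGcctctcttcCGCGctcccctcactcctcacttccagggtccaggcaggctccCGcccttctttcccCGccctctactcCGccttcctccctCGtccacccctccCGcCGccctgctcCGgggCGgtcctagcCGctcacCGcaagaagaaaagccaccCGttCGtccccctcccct
The stretches of 218 and 250 bases hold 23 and 22 CG. Of the 23 lower genes named by rules other than the gene lists, 12 matched an entry of the promoter table, and 11 of those (91.7%) held at least 15 CG in the 300 bases around the RefSeq start. The same held for 10185 of 12121 matched genes among all tested (84.0%), so the named genes lay near the background.

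Genes that neurons use to build and release transmitter vesicles and to shape axons included several with few or no counts in the libraries labelled RING mutant. Of 43 listed neuronal genes 42 were found and 33 tested, and 5 were non-overlapping and lower, none higher. A log2 difference below 0 was seen in 21 of the 33, against 56.8% of all genes tested. The median was -0.40, against -0.04 over all genes, and -0.11 without T4, the control library that stood highest for all 5. Like the other lists, this one was written with earlier results of these data known, so its median and counts are description only. RIMS4, a regulator of vesicle release at synapses, stood at 0.821, 7.09 and 1.53 CPM in T1, T4 and T12 and had no count in any library labelled RING mutant. Set against 272 control counts, 221 of them in T4, RIMS4 was at least 73.0-fold lower. It was called by the likelihood ratio test (adjusted p = 0.00239) and by DESeq2 (adjusted p = 0.00183). In edgeR's quasi-likelihood test its adjusted p was 0.99996 with the filter on low counts and 7.01e-05 without it. INA, an intermediate filament protein of neurons, likewise had no count against 143, 117 of them in T4, and was at least 38.4-fold lower. The bounds of RIMS4 and INA cover counting error only, not the spread between libraries. UCHL1, a neuronal deubiquitinase (chromosome 4, 41256413 to 41268455), stood at 8.96, 17.2 and 2.44 CPM against 0.0593, 0.394 and 0.0568. It had 9 of its 11 remaining counts in T6, and its means differed 56.1-fold. NEFM, a neurofilament subunit, was lower by a smaller margin: 1.5, 3.72 and 1.18 CPM against 0.474, 0.394 and 0.227. CNTNAP2, an adhesion protein of axons, had 4 counts against 121. The other 28 tested members overlapped between the groups. Among them CNTN1 (log2 difference -2.09) and NLGN1 (-1.87) lay lowest and TUBB3 (0.55) and NTRK2 (0.68) highest. RNF4 with Dox had 19.4 CPM of UCHL1 in T2, 2.91 in T5 and 0.331 in T13.

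Further genes in the authors' lower list had other roles. CA2, carbonic anhydrase, stood at 20.9, 11.5 and 4.95 CPM in T1, T4 and T12, and at 0, 0.700 and 0.0568 in T3, T6 and T14. The groups stood 49.3-fold apart in mean, and T6 again held 16 of the 17 counts. MAPK8IP2, a scaffold of JNK kinase signalling, stood at 1.57, 7.96 and 2.16 CPM against 0.0593, 0.350 and 0.170. EMILIN3, an extracellular matrix glycoprotein, stood at 1.03, 4.40 and 0.943 CPM against 0.0593, 0.131 and 0.114. CALCB, a calcitonin gene-related peptide, had 2 counts against 134, a ratio of 53.9 (95% counting interval 14.6 to 450, for counting error only). ZBED10P, typed as protein-coding in the annotation used, had 1 count against 249, of which 200 were in T4. The pseudogene PRSS30P had 1 against 76, GLB1L3 2 against 82, and the noncoding LINC01515 none against 63. At these counts only the sum over a group says much. PARM1, also on that list, is different: its groups overlapped, since T12 stood at 0.157 CPM, and T1 at 25.8 CPM held most of the control level. In the authors' deposited table the 16 genes have log2 differences from -9.10 (RIMS4, a fitted value, since 1 group has no counts) to -4.14 (AMOT), and adjusted p from 1.95e-05 for RIMS4 and AL035425.3 to 0.0362 for GLB1L3.

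The neighbouring homeobox genes HOXD11 and HOXD10 of chromosome 2, which set position along the body axis in embryos, were both non-overlapping and lower. HOXD11 stood at 0.958, 3.08 and 0.786 CPM in T1, T4 and T12 against 0.0593, 0.131 and 0.0568 in T3, T6 and T14. HOXD10 stood at 3.22, 10.1 and 3.62 CPM against 1.24, 1.27 and 1.19. The 3 libraries labelled RING mutant lay close together for HOXD10 and left a 4.57-fold gap in mean. T4 carried much of it, since the log2 difference of -2.19 was -1.46 without T4. The processed pseudogene ENSG00000213058 stood at 33.1, 8.47 and 2.87 CPM against 0.474, 1.01 and 0.796. It may share reads with its parent gene and is uncertain. Further genes with small unadjusted p were SAMD5 (log2 difference -2.44 ± 0.61), DUSP8, a phosphatase of MAP kinases (-1.89 ± 0.48), and TC2N (-1.88 ± 0.47), each non-overlapping.

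**Figure D2:**
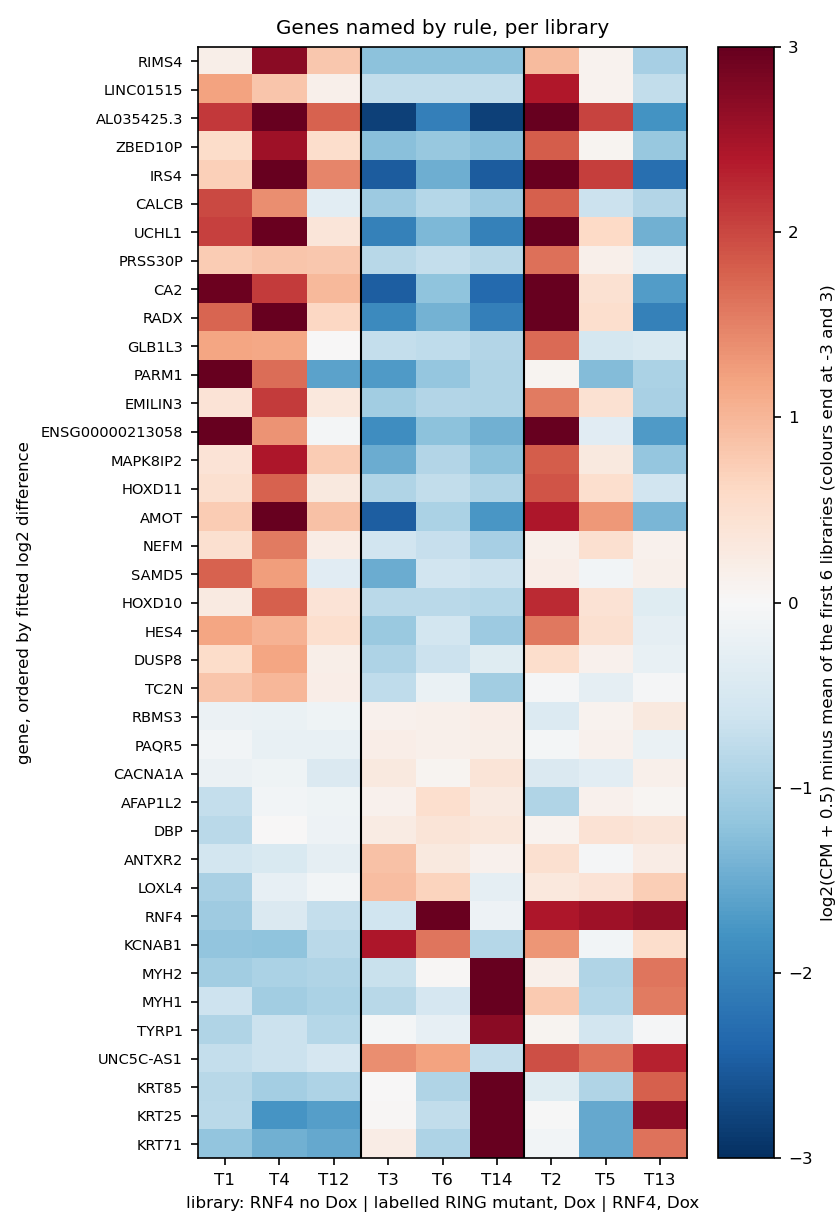
Log2 of CPM plus 0.5 in all 9 libraries, minus the mean of the 6 compared, for the 39 genes named by rules other than the gene lists, ordered by their fitted log2 difference. The lower genes are pale or blue in T3, T6 and T14 and red in T4, T13 resembles those 3 libraries for IRS4, CA2 and RADX, and the keratins and myosins are red in T14.

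Notch signalling passes between touching cells: ligands of the Delta and Jagged families bind Notch receptors, whose cleaved part then switches on repressors of the HES and HEY families. Among 19 tested genes of this list, 2 targets were non-overlapping and lower. HES4 stood at 14.4, 13.1 and 8.92 CPM in T1, T4 and T12 and at 2.55, 4.02 and 2.61 in T3, T6 and T14. HEY1 stood at 21.8, 46.3 and 13.8 CPM against 5.93, 8.13 and 8.01. The group means differed 3.96-fold for HES4 and 3.71-fold for HEY1. For HEY1 the groups came closest at T12 (13.8 CPM) and T6 (8.13). HES4 kept a log2 difference between -2.23 and -1.83 whichever library was left out, whereas that of HEY1 was -1.89 with all libraries and -1.27 without T4. NRARP, a feedback inhibitor, overlapped because T14 stood at 4.83 CPM, with 0.533 in T3 and 1.01 in T6. The receptors NOTCH1 (log2 difference -0.02), NOTCH2 (0.41) and NOTCH3 (-0.00), the ligand JAG1 (0.21) and the target HES1 (0.01) overlapped. The list median was -0.02, and -0.43 without T14. With all libraries 12 of 19 members lay below 0, against 56.8% of all genes tested. For context, HEY1 with wild-type RNF4 and Dox stood at 68.3 in T2, 14.2 in T5 and 6.41 CPM in T13.

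BMPs and TGF-beta are secreted ligands that signal through paired kinase receptors and SMAD proteins, with the ID genes among BMP targets. Of 32 tested genes, 4 were non-overlapping, all lower. Among ligands, BMP7 stood at 1.5, 6.84 and 3.18 CPM without Dox and at 0.533, 0.569 and 1.36 in T3, T6 and T14. BMP6 was at 1.44, 1.35 and 1.1 against 0.711, 0.787 and 0.682. NOG, which encodes the extracellular BMP inhibitor noggin, stood at 5.88, 6.03 and 10.6 CPM against 5.27, 4.64 and 5.40, a narrow gap. The target ID2 stood at 12, 13.3 and 7.51 CPM against 5.39, 6.04 and 6.88. ID4, another target, had a larger log2 difference (-2.5 ± 0.98), but T14 at 2.10 CPM lay above T12 at 1.38, and without T4 the difference was -0.89. The receptors and SMADs overlapped between the groups and the list median was -0.14.

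Insulin and IGF receptors signal through the IRS adaptors, and GRB10 and GRB14 are adaptors that restrain those receptors. Of 30 tested genes, 3 were non-overlapping and lower (IRS4, GRB10 and IGFBP3) and 1 higher (IGFBP4). GRB10 stood at 30.7, 28.9 and 7.82 CPM in T1, T4 and T12 and at 3.85, 6.25 and 6.53 in T3, T6 and T14, so T12 was close to T14. GRB14 overlapped, with a log2 difference of -1.35 ± 0.66. The abundant binding proteins of IGF differed little in fold: IGFBP3 had means of 480 ± 96.8 and 625 ± 92.3 CPM (SD, n = 3 each), and IGFBP4 508 ± 82.0 and 401 ± 71.7. The other IRS adaptors and the receptors did not share the difference of IRS4: IRS1 had a log2 difference of 0.25, IRS2 -0.19, IGF1R 0.03 and INSR -0.22, and all overlapped.

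Fewer genes were higher. ANTXR2, a cell surface receptor for anthrax toxin that binds collagen (chromosome 4, 79901149 to 80125454), had the smallest unadjusted p among non-overlapping higher genes at a mean of 5 CPM or more. It stood at 80.9, 85.7 and 97.3 CPM without Dox and at 218, 144 and 128 in T3, T6 and T14. The groups did not overlap, the log2 difference was 0.89 ± 0.25 with an unadjusted p of 0.00502 in edgeR's quasi-likelihood test, and it ranged from 0.63 to 1.04 over the libraries left out. RNF4 with Dox stood between 114 and 166 CPM for the same gene. LOXL4, an enzyme that crosslinks collagen, stood at 32.8, 54.2 and 61.6 CPM against 123, 103 and 53.5, where T14 lay within the controls. A set of genes, named because their gap between the groups was among the widest, was higher by small margins. RBMS3, an RNA-binding protein, stood at 17.2, 16.8 and 17.7 CPM against 21.4, 21.8 and 22.5. PAQR5, a membrane progestin receptor, stood at 18.1, 16.4 and 16.3 CPM against 22, 21.3 and 21.6. Their log2 differences of 0.34 and 0.36 exceeded the spread between libraries of a group, which the naming rule favours. The unadjusted p were 0.133 and 0.066 in edgeR's quasi-likelihood test. The calcium channel subunit CACNA1A (0.56), the adaptor AFAP1L2 (0.64) and the clock output factor DBP (0.64) were also non-overlapping.

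KCNAB1, a beta subunit of voltage-gated potassium channels, had the smallest adjusted p among the 3 higher genes of the authors' deposited table (0.0111, log2 difference 2.75). In CPM it stood at 4.31, 4.24 and 5.70 without Dox and at 58.5 in T3, 33.0 in T6 and 5.57 in T14. T3 and T6 were high, whereas T14 lay below T12, so the groups overlapped. The fitted log2 difference was 2.76 ± 0.71. RNF4 with Dox stood at 26.9, 9.86 and 15.1 CPM. Among 22 tested potassium channel genes the other subunits KCNAB2 (0.17) and KCNAB3 (0.24) differed little, KCNG1 was non-overlapping and higher (22.9, 27.1 and 24.6 CPM against 30.2, 32.2 and 31.7), and KCNS3 was non-overlapping and lower (3.97, 2.57 and 2.40 against 0.770, 2.01 and 1.53).

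The netrin receptor UNC5C showed the same split. Netrins guide growing axons, and receptors of the DCC and UNC5 families are also known to trigger cell death when no netrin is bound. UNC5C stood at 0.205, 0.963 and 0.629 CPM in T1, T4 and T12 and at 5.10 in T3, 4.24 in T6 and 0.170 in T14. UNC5C-AS1, a noncoding gene on the opposite strand at the start of UNC5C, had 28 counts in T3, 32 in T6 and none in T14. The controls together had 3, a ratio of 24.8 (95% counting interval 8.10 to 124). That interval takes no account of the spread between libraries. T14 was thus as low as the controls for both, and both stood higher still in the RNF4 libraries with Dox, UNC5C at 8.80 to 14.1 CPM. The library kit keeps strand, but the strand setting of the counting is not given in the sources used here, so reads of the overlapping ends cannot be assigned with certainty. The ligand NTN1 had a log2 difference of -2.20 ± 0.73 with T14 (1.31 CPM) above T1 (0.889), UNC5B -0.81 ± 0.42, and UNC5D was non-overlapping and higher only by a margin lost in rounding (T14 and T12 both at 1.53 CPM). Over 11 tested members 8 lay above 0.

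Several of the highest fold differences rested on T14. KRT71, a keratin of the inner root sheath of hair and 1 of the 3 higher genes in the authors' deposited table, stood at 0.137, 0.0321 and 0 CPM without Dox and at 1.19 in T3, 0.262 in T6 and 40.2 in T14. KRT25, of the same sheath, stood at 51.8 CPM in T14 and at or under 1.24 in the other 5. KRT85, a hair keratin, stood at 12.5 against at most 0.533. The fast myosin MYH4 stood at 95.5 CPM in T14 and at or under 3.69 in the other 5, and skeletal actin ACTA1 at 206 and at or under 14. All 16 tested muscle markers had a log2 difference above 0, with a median of 3.21, and without T14 the median was 0.15. The pigment gene TYRP1, which encodes a melanosome enzyme, stood at 8.13 CPM in T14, 0.770 in T3 and 0.612 in T6 against 0.205 to 0.353 in the controls, and PMEL, the melanosome fibril protein, at 10.2 in T14 against 0.744 to 2.04. The fibroblast and matrix markers summed to 5086 CPM in T14, above 1156 to 3381 in the other 5. The leukocyte and macrophage markers summed to 155 CPM in T14 and 60.6 to 97.8 in the other 5, and each of their 19 members found had counts in at least 1 of the 6, as had all 18 muscle markers. The adipocyte markers summed to 25.9 CPM in T14 against 11.2 to 20.2 in the other 5. Not all host lists peaked there: the keratinocyte markers summed to 428 CPM against 284 to 473, and the endothelial markers to 331 against 179 to 339. As a mean over members of log2 CPM, centred on the 6 libraries, the keratinocyte list stood at 1.13 in T14 and 1.14 in T12. In the rest of the 6 that mean was -0.97 to -0.16. Whether host tissue in T14 had a part in these values was not tested. The host is mouse and the build human, and whether mouse reads were removed is not given in the sources used here.

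**Figure D3:**
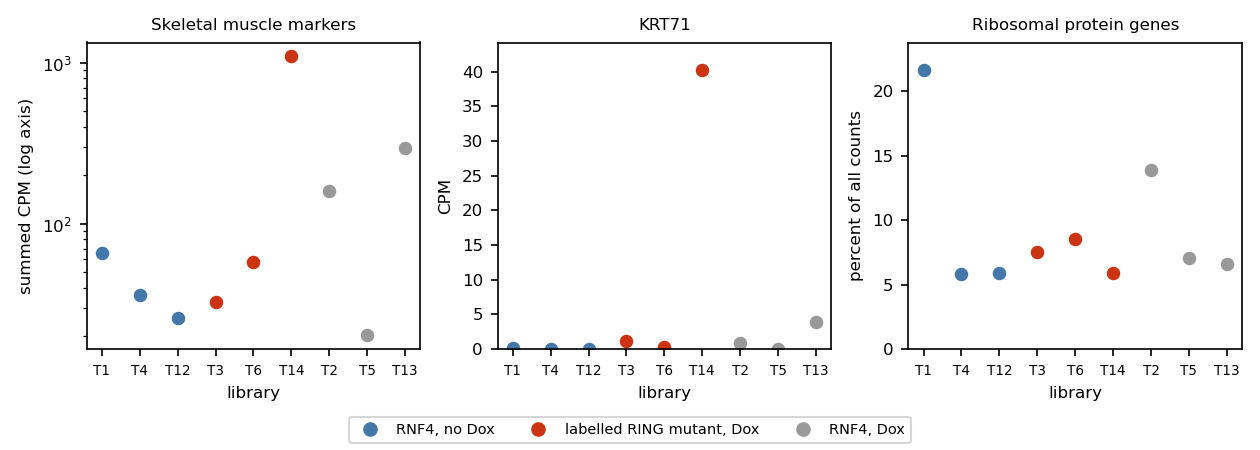
Summed CPM of the skeletal muscle markers (left, log axis), CPM of KRT71 (middle) and percent of counts on ribosomal protein genes (right) in each library, with colour for the group. T14 is highest for the first 2 measures, at 1092 and 40.2, and T1 for the third, at 21.6%.

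Genes that cells switch on at low oxygen through the HIF factors were slightly lower as a list. Of 32 tested, 31 had a log2 difference below 0, against 56.8% of all genes tested. The list median of -0.22 stayed between -0.28 and -0.17 whichever of the 6 libraries was left out. None had an unadjusted p under 0.05. The 4 non-overlapping members were lower: HILPDA, a lipid droplet protein, the vasodilator peptide ADM, the glucose transporter SLC2A1, and PFKFB4, a regulator of glycolysis. SLC2A1 stood at 451, 462 and 485 CPM in T1, T4 and T12 and at 419, 383 and 391 in T3, T6 and T14. ADM stood at 110, 123 and 131 CPM against 92.7, 102 and 100.0. PFKFB4 stood at 213, 225 and 247 CPM against 203, 189 and 207. HILPDA stood at 190, 80.0 and 87.4 CPM against 60.5, 70.8 and 75.3, with T1 far above the rest. The 4 means differed between 1.14-fold (PFKFB4) and 1.73-fold (HILPDA), and LOX (-1.11 ± 0.52), CA9 (-0.16) and VEGFA (-0.35) overlapped.

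The ribosomal protein list depended on T1. All 58 genes had a log2 difference below 0 with a median of -0.85, none was non-overlapping, and without T1 the median was 0.37. Mitochondrial translation genes (28 tested, median -0.18, 0.17 without T1) and cytokines (21 tested, median -0.27, 0.09 without T1) had medians of the other sign without T1 as well. The neutrophil chemokine CXCL8 stood at 431 CPM in T1, 21.8 in T4 and 51.7 in T12, and at 73.2, 36.3 and 35.6 in T3, T6 and T14, so its log2 difference of -1.80 rested on T1 and was 0.41 without it. PTGS2, the inducible cyclooxygenase, stood at 13.1, 2.92 and 3.89 CPM against 0.889, 1.97 and 2.27. It was non-overlapping, and its log2 difference was -1.94 with all libraries and -0.98 without T1.

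The SUMO and RNF4 pathway itself showed little difference beyond RNF4. Of 28 tested genes 15 lay above 0 and 13 below, with a median of 0.04. Only RNF111, the other ligase that binds SUMO chains, was non-overlapping, at 43.4, 44.3 and 43.3 CPM against 45.6, 44.8 and 44.4, a log2 difference of 0.04 ± 0.15. PML, a SUMO-modified substrate of RNF4 that forms nuclear bodies, had a log2 difference of 0.29 ± 0.27. That of the protease SENP7, which trims SUMO chains, was -0.53 ± 0.41. Without T1 the differences were 0.08 for PML and -0.01 for SENP7. The modifier gene SUMO2 (-0.46) overlapped. Lists of growth and stress programmes had these medians: G2/M and mitosis (31 tested) at -0.03, G1/S and DNA replication (29) at -0.06, p53 targets (24) at -0.04, ERK pathway output (24, of which 17 above 0) at 0.13, and the ATF4 amino acid response (33) at 0.00. Of 40 interferon response genes 27 lay above 0 with a median of 0.07, and XAF1, an apoptosis factor, was the 1 non-overlapping member, at 1.98, 2.28 and 2.16 CPM against 3.61, 2.89 and 4.60. In all 35 lists no gene passed the adjusted threshold.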

How the data were processed

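RNA was taken from pools of 2 xenograft tumours, and directional libraries were made from poly(A)-selected RNA, per the labels' protocols. Per the submitters' processing notes, TopHat2 2.0.13, HTSeq 0.6.0, DESeq2 1.10.1 and the build GRCh38 were used; their roles, the annotation release and the strand setting are not stated. The authors deposited raw read counts per gene, log2 fold changes and adjusted p-values, per the file headers. 9 other columns per sample were not used. Totals were 16416426 to 28934692 counts in the 6 libraries compared; counting intervals and floors cover counting error only.

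From the counts, edgeR 4.0.16 fitted all 9 libraries with 1 mean per group (quasi-likelihood, TMM, filterByExpr, Benjamini-Hochberg over 18618 genes). On simulated data for this comparison with 18618 genes, 35 of 50 genes changed 4-fold were recovered, and 7 of 50 changed 2-fold. The changed genes had a mean of at least 1 CPM, and 10 unchanged genes were called. Each gene was simulated on its own, without shifts shared by many genes of a library such as those of T1 and T14. The recovery in the real libraries may therefore differ. DESeq2 1.42.0 and limma 3.58.1 were alternatives. Positions are from GENCODE 29, in which 52338 of 57820 identifiers were found.

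Named genes were RNF4, the 10 genes each way with the smallest p at a mean of 1 CPM or more, the authors' listed genes, the 8 each way with the widest gap between groups at 5 CPM or more, up to 3 members by p and the non-overlapping members of 12 described lists, with the most abundant members of the marker list, and non-overlapping genes between named genes within 5 Mb. The members and lists were chosen with earlier results of these data known. Of 895 list entries 884 were found.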

Additional observations from a re-analysis of the deposited data

How the results depend on the processing

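The count of called genes, 0 in the quasi-likelihood test, was 109 with no filter on low counts (34 higher, 75 lower, 38 of the 83 named genes among them), 5 with the likelihood ratio test and 4 with DESeq2. It was 1 (FLT4, log2 difference -2.27) on leaving T1 and T2 out, a choice made after seeing the data. It stayed at 0 with RLE size factors, a filter of 1 CPM, the 6 libraries alone, the robust test and limma voom. The count was also 0 with each single library left out, and with a block for runs of consecutive column numbers, which no label ties to replicates. Leaving T3 and T14 out, also chosen after seeing the data, leaves 1 library labelled RING mutant, so no count of calls is given for it. Why the filter moved it was not tested. The count of non-overlapping genes, 704, was 690 with RLE size factors, 534 with the 1 CPM filter and 1532 without a filter, where more genes are tested. With fewer libraries to separate it was 1519 to 3593 when 1 library was left out, 3535 on leaving T1 and T2 out and 4738 on leaving T3 and T14 out.

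Many of the 83 named genes were chosen for their difference between these same libraries. A non-overlapping gene largely keeps its direction when 1 library is left out, so the following count is no independent test of direction. Of 1396 alternative values for the 83 genes, 1389 kept their direction. The exceptions were CXCL8 (-2.32 to 0.41 over single libraries left out, 0.42 on leaving T1 and T2 out), PMEL (-0.47 to 1.81, -0.78 with limma voom, -1.17 on leaving T3 and T14 out) and ATP2A1 (-0.55 to 3.65, -0.27 on leaving T3 and T14 out). No paired analysis was possible because the columns carry no replicate number and the titles repeat the number 1 within each group. Depth limits the genes with few counts: a group at 0 allows up to 3 counts.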
